A study of Mus musculus with 15 samples.

Results

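Glucocorticoids and fasting act on muscle through overlapping genes, and 10 of them are described here in tibialis anterior, the muscle along the shin. They are the glucocorticoid receptor Nr3c1, 5 genes that the receptor induces (Tsc22d3, Fkbp5, Cebpd, Zbtb16 and Sgk1) and 4 genes of fuel use and insulin signalling (Pdk4, Glul, Pik3r1 and Angptl4). They were taken by symbol from the 42396 gene entries of each of 2 count tables, and all 10 were found in both. Adult C57BL/6 mice had received AAV6, an adeno-associated virus, in the hindlimb 2 months before RNA was taken. The virus carried LSMEM2 C-del or, in the mock groups, EGFP, a green fluorescent protein, so every group had been given virus. There were 4 mock and 4 C-del libraries from males in one table, and 3 mock and 4 C-del libraries from females in the other, so effects of sex and of table cannot be told apart. What C-del stands for, the promoter of the virus and the feeding state at sampling are not given here.

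The glucocorticoid receptor is a nuclear receptor held in the cytosol by Hsp90 and its helper proteins until it binds steroid. It then enters the nucleus and binds DNA at a palindrome of a pair of half-sites, and it is known to lower its own transcript in many tissues. In muscle its targets include brakes on insulin signalling and protein synthesis, and many of the same genes respond to fasting through FOXO factors and PPAR receptors.

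Promoter sequences are shown for 3 members that differed between male groups, because the palindrome is a textbook feature of this pathway. RefSeq windows of GRCm38.p6, from 250 bases before to 50 bases after a transcript start, matched 6 of the 10 members with 14 windows. Nr3c1, Cebpd, Zbtb16 and Angptl4 had no window and were not searched. The palindrome was searched as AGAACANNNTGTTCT and the half-site as AGAACA, on both strands, and a palindrome counts also as a pair of half-sites. Capitals mark half-sites and, in Sgk1, the whole palindrome. The Sgk1 window lies at chr10:21993640-21993939 on the plus strand, the Tsc22d3 window at chrX:140600473-140600772 and the Fkbp5 window at chr17:28486100-28486399, both on the minus strand.
Sgk1: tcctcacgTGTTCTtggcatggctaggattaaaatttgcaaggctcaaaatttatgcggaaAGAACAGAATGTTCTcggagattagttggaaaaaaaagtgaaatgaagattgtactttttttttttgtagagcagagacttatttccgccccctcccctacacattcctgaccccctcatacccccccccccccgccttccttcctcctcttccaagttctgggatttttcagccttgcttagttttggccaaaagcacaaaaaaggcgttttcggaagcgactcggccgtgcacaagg
Tsc22d3: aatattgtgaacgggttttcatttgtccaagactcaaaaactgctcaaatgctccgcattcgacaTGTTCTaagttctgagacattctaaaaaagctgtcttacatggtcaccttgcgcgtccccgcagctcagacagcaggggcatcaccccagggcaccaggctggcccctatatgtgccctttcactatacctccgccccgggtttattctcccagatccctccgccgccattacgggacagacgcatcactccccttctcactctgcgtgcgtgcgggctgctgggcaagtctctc
Fkbp5: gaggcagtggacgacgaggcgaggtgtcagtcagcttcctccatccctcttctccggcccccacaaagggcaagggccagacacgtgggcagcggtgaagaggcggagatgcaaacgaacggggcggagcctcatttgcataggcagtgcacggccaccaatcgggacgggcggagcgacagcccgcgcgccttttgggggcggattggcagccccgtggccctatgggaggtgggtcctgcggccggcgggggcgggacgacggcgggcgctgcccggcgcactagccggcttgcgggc
The palindrome stood in 1 of the 6 Sgk1 windows, the fifth along the gene, from position -189 to -175 relative to the start (chromosome 10, 21993701 to 21993715). Of all 32851 promoter windows 3 held it, a share of 0.00913%. Half-sites were far more frequent, in 19% of all windows, and were found in this Sgk1 window, in 2 other Sgk1 windows and in 1 of the 3 Tsc22d3 windows. No half-site stood in the single windows of Fkbp5, Pdk4 and Glul or in the 2 windows of Pik3r1. The 14 windows held neither the FOXO motif GTAAACA (in 3.65% of all windows) nor the CRE motif TGACGTCA (in 1.79%). A match describes letters only, and no binding was measured. Sequence outside the windows and looser forms of the motifs were not searched, so a window without a match does not show that the gene lacks an element.

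Total counts per library were 14297600 to 17744000 in males and 9285150 to 12054900 in females. Levels are given in CPM, counts scaled to a common library size with TMM factors. Lsmem2 had 28.7 to 30.0 CPM in male mock and 486.8 to 2384 CPM in male C-del libraries, and 29.2 to 32.8 CPM in female mock and 1336 to 2678 CPM in female C-del libraries, so every library fitted its treatment label. The extraction text speaks of hearts. A sum of 6 skeletal muscle markers was 90500 to 132000 CPM over the 15 libraries, against 8.19 to 30 CPM for 6 heart markers. Several libraries stood apart. Female mock library 3 was short of long transcripts: genes with at least 7.2 kb of exon lay 0.627 lower (median, log2) relative to genes of up to 2.92 kb than on average in females, against 0.073 to 0.145 higher in the other 6 female libraries. Female mock libraries 2 and 3 had 522 and 264 CPM of 8 macrophage markers, against 54 to 110 CPM in the other 5. Male C-del libraries 1 and 2 had 182 and 199 CPM of these markers, against 59 to 88.1 CPM in the other 6. Male C-del columns also came in neighbouring pairs, which mock columns did only in part. The chi-square per gene between 2 libraries was 4.52 for C-del 1 and 2, 4.26 for C-del 3 and 4 and 11.2 to 13.6 across these pairs. In mock it was 5.6 and 2.48 within and 4.3 to 8.76 across, and libraries 1 and 4 (4.3) were closer than 1 and 2 (5.6). No label ties a library to an animal of its own. The p-values therefore rest on the spread among libraries, which may be technical. In whole muscle, fewer cells of a type and less RNA per cell cannot be told apart.

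In males the receptor fell and 4 of its 5 induced genes rose, by 1.22-fold to 2.31-fold, while no metabolic member passed the test. In females no member passed, and only 2 of 14220 genes did. The value closest to passing was that of Zbtb16, which did not pass in males. The threshold was an adjusted p of 0.05 (edgeR's quasi-likelihood test, Benjamini-Hochberg over all genes tested). The members were chosen with earlier results of these data known, so counts beside shares of all genes do not test the list. In males 5 of the 9 members tested passed, against 11.2% of all 14543 genes (4 of 9 higher, against 5.8%; 1 of 9 lower, against 5.37%). DESeq2 passed 5 of 9, against 10.3%. At an unadjusted p under 0.05 the male counts were the same, against 26% of all genes (13.1% higher and 12.9% lower). In females 0 of 10 passed with edgeR, against 0.0141% of 14220 genes. At an unadjusted p under 0.05 the female count was 1 of 10, against 11.9% of all genes (1 higher, against 4.81%, and 0 lower, against 7.09%). DESeq2 passed that same gene, Zbtb16, against 2.64% of all genes. The median log2 fold change over the members was 0.29 in males and 0.20 in females, and over all genes it was -0.0047 and -0.015.

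**Figure D1:**
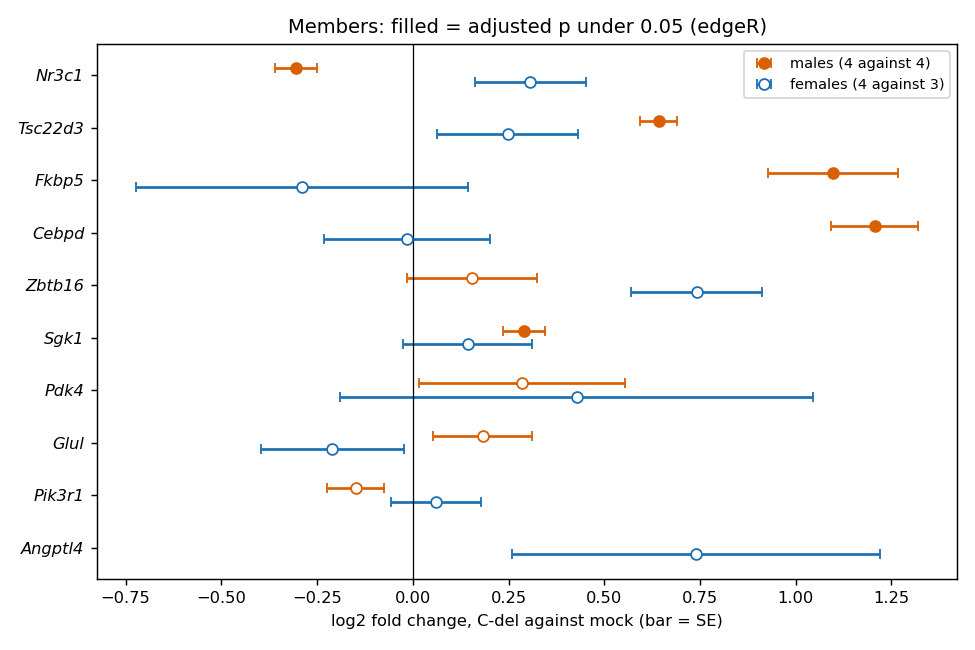
Log2 fold change of C-del against mock for each member (x axis; bars are SE) in males (orange, 4 against 4 libraries) and females (blue, 4 against 3); filled points passed edgeR at an adjusted p under 0.05. The 5 filled points are all male, with Nr3c1 to the left of 0, and Angptl4 has no male point because it did not pass the filter on low counts there.

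Nr3c1, the receptor itself (chromosome 18, 39410545 to 39519421), had 134, 125, 131 and 122.5 CPM in male mock libraries 1 to 4 and 101, 95.9, 114 and 105.5 CPM in male C-del libraries 1 to 4. The groups did not overlap, C-del being lower, which held for 8.29% of all genes in males. The receptor transcript fell 1.23-fold (log2 -0.30 ± 0.056, SE; edgeR, adjusted p = 0.00292). In females it had 132, 111 and 85.3 CPM in mock libraries 1 to 3 and 139, 130.5, 135 and 138 CPM in C-del libraries 1 to 4. The C-del libraries were close together, and mock library 1 lay within their range. The female log2 fold change was 0.31 ± 0.14 (edgeR, adjusted p = 0.442). The lowest female value came from mock library 3, the library short of long transcripts, and Nr3c1 has 7.68 kb of exon. Without that library the log2 fold change was 0.15 (adjusted p = 0.531), and against mock library 1 alone it was 0.041. Without mock library 1 it was 0.46 (adjusted p = 0.0773). Fkbp5 and Pik3r1, at 9.47 and 10.1 kb, are longer still. The part of transcript length in the female value was not tested further. The female minus male difference in log2 fold change was 0.61 ± 0.15 and did not pass with edgeR (adjusted p = 0.0714), and it passed in 2 of 20 alternatives. These were DESeq2 (adjusted p = 0.00778) and edgeR without female mock library 1 (log2 difference 0.77, adjusted p = 0.000786). Without female mock library 3 the difference was 0.46 (adjusted p = 0.0636), and over the 20 alternatives the adjusted p reached 0.139.

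Tsc22d3, a leucine zipper protein also called GILZ that carries part of the anti-inflammatory action of glucocorticoids (chromosome X, 140539528 to 140600522), separated the male groups clearly. It had 165.5, 177, 165 and 182 CPM in male mock libraries 1 to 4 and 271, 261, 262 and 285 CPM in male C-del libraries 1 to 4. All C-del libraries lay above all mock libraries, as did those of 9.34% of all genes. The gene rose 1.56-fold in males (log2 fold change 0.64 ± 0.048, SE; edgeR, adjusted p = 2.03e-06), and its p ranked 12 among 14543 genes. In females it had 106.5, 97.5 and 175 CPM in mock libraries 1 to 3 and 149, 137, 157 and 155 CPM in C-del libraries 1 to 4. Mock library 3 was the highest of the 7, while the other mock libraries lay below every C-del library. The female log2 fold change was 0.25 ± 0.18 (edgeR, adjusted p = 0.623), and without mock library 3 it was 0.54 (adjusted p = 0.105). It was 0.14 without mock library 1 and 0.099 without mock library 2. The female minus male difference was -0.40 ± 0.19 (edgeR, adjusted p = 0.302), and without female mock library 3 it was -0.093 (adjusted p = 0.703).

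Cebpd, a C/EBP transcription factor induced early by glucocorticoids and by inflammation (chromosome 16, 15887286 to 15889545), had the largest male fold among the members. Male mock libraries 1 to 4 had 6.65, 8.69, 9.13 and 9.39 CPM, and male C-del libraries 1 to 4 had 23.1, 17.8, 18.3 and 19.2 CPM. The groups did not overlap. Cebpd rose 2.31-fold (log2 1.21 ± 0.11, SE; edgeR, adjusted p = 1.62e-05). In females the gene had 5.65, 5.98 and 7.04 CPM in mock libraries 1 to 3 and 7.38, 5.99, 4.19 and 7.08 CPM in C-del libraries 1 to 4. The female groups overlapped, with a log2 fold change of -0.015 ± 0.22 (edgeR, adjusted p = 0.984). Cebpd was the 1 member of 10 whose effect differed between the tables, where 0.354% of 15272 genes did (female minus male log2 fold change -1.23 ± 0.24; edgeR, adjusted p = 0.045). Leaving out any one of the 8 male libraries, female mock library 3 or female C-del library 2, 3 or 4 ended this call, with adjusted p from 0.0630 to 0.102 and log2 differences from -1.299 to -1.077. At an unadjusted p under 0.05, 4 of 10 members differed, against 16.9% of all genes (2 higher in females, against 7.09%, and 2 lower, against 9.76%), and DESeq2 passed 2, against 4.3%.

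Fkbp5 encodes an Hsp90 co-chaperone that lowers the receptor's affinity for steroid and is itself induced by the receptor (chromosome 17, 28398753 to 28486149). The tables hold 2 entries of this symbol with the same value in every library, which is how a count shared equally between 2 loci would look, so the CPM below are those of 1 entry. Male mock libraries 1 to 4 had 13.9, 15.1, 19.9 and 17.9 CPM, and male C-del libraries 1 to 4 had 29.3, 29.8, 41.5 and 42.4 CPM. All C-del libraries lay above all mock libraries, and in C-del the second pair of columns stood above the first. Fkbp5 rose 2.14-fold (log2 1.10 ± 0.17, SE; edgeR, adjusted p = 0.00541). With both entries summed the male means were 33.4 ± 5.39 and 71.5 ± 14.3 CPM (SD, n = 4 each). Female values were 9.46, 22.0 and 9.14 CPM in mock libraries 1 to 3 and 7.73, 13.8, 6.04 and 17.6 CPM in C-del libraries 1 to 4. The female groups overlapped in part (log2 fold change -0.29 ± 0.43; edgeR, adjusted p = 0.816). Without mock library 2, the highest and the one with most macrophage marker RNA, the log2 fold change was 0.28. The female minus male difference was -1.40 ± 0.48 (edgeR, adjusted p = 0.158), and without female mock library 2 it was -0.82 (adjusted p = 0.302).

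Sgk1, a kinase that is induced by the receptor and regulates ion channels and FOXO factors (chromosome 10, 21882184 to 21999903), carries the palindrome shown above. It had 214, 207, 226 and 221.5 CPM in male mock libraries 1 to 4 and 263, 239, 282 and 281 CPM in male C-del libraries 1 to 4. The male groups did not overlap, but the fold was small. Sgk1 rose 1.22-fold (log2 0.29 ± 0.056, SE; edgeR, adjusted p = 0.00414). In females it had 167, 124.5 and 133 CPM in mock libraries 1 to 3 and 192, 120, 154 and 158 CPM in C-del libraries 1 to 4, and the groups overlapped (log2 fold change 0.14 ± 0.17; edgeR, adjusted p = 0.761).

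Zbtb16, also called PLZF, is a zinc finger repressor with a strong glucocorticoid response in many cells. In males it had 170, 174, 115 and 112 CPM in mock libraries 1 to 4 and 161, 147, 175 and 156 CPM in C-del libraries 1 to 4. Mock libraries 3 and 4 were low and the rest overlapped, so the male log2 fold change was 0.16 ± 0.17 (edgeR, adjusted p = 0.629). Against mock libraries 1 and 2 alone it was -0.11. In females the groups did not overlap, with all C-del libraries higher, as for 5.61% of all genes there (4.37% in the other direction): 38.8, 40.6 and 32.9 CPM in mock libraries 1 to 3, and 52.9, 61.2, 54.0 and 82.7 CPM in C-del libraries 1 to 4. The female log2 fold change of 0.74 ± 0.17 did not pass with edgeR (adjusted p = 0.157). It passed with DESeq2 (adjusted p = 0.00735) and in an edgeR fit of all 15 libraries (adjusted p = 0.0284). The female minus male difference was 0.58 ± 0.24 (edgeR, adjusted p = 0.229).

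The male calls of Tsc22d3 and Cebpd held under all 17 alternatives tried, but those of the other 3 genes did not. In the fit of all 15 libraries the adjusted p was 0.144 for Nr3c1, 0.0915 for Fkbp5 and 0.235 for Sgk1, with log2 fold changes of -0.30, 1.10 and 0.29. With neighbouring male columns summed, an alternative chosen after seeing the data that leaves 2 values a group, the adjusted p was 0.0946, 0.15 and 0.127.

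**Figure D2:**
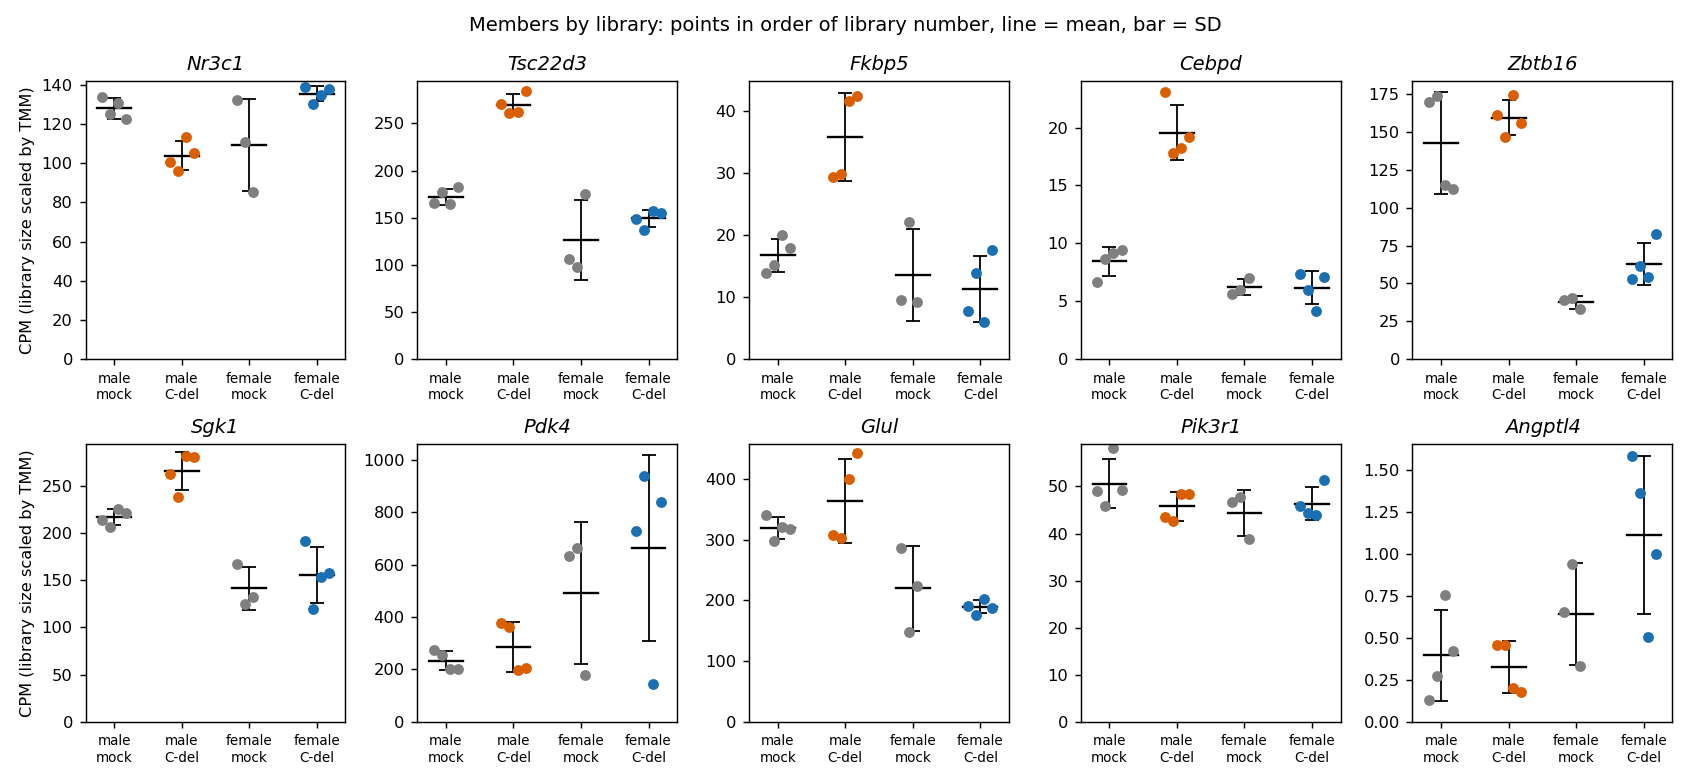
CPM of each member in every library (y axes from 0), by group on the x axis; points stand in the order of library number, lines are group means and bars SD. Male mock and C-del points are apart for Nr3c1, Tsc22d3, Fkbp5, Cebpd and Sgk1, female ones for Zbtb16 alone, and Pdk4 falls into high and low libraries in both female groups.

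The 4 metabolic members did not pass in either table. Pdk4 encodes a kinase that shuts off pyruvate dehydrogenase and spares glucose in the fasted state (chromosome 6, 5483351 to 5496278). It had 273.5, 257, 201 and 202 CPM in male mock libraries 1 to 4 and 375, 360.3, 199 and 204.5 CPM in male C-del libraries 1 to 4. The first 2 C-del columns were high, and the other 2 were level with mock columns 3 and 4 (log2 fold change 0.29 ± 0.27; edgeR, adjusted p = 0.571). Without C-del libraries 1 and 2, which had the most macrophage marker RNA in males, the log2 fold change was -0.21. In females Pdk4 had 631.5, 661 and 180 CPM in mock libraries 1 to 3 and 728, 938, 145 and 838 CPM in C-del libraries 1 to 4. Thus 1 mock and 1 C-del library, each numbered 3, were several-fold below the other 5, and the log2 fold change of 0.43 ± 0.62 had a wide error (edgeR, adjusted p = 0.808). It was 0.026 without mock library 3 and 0.76 without C-del library 3. The macrophage marker sum was 264 CPM in mock library 3 and 61.6 CPM in C-del library 3, and the long against short transcript value was -0.627 and 0.082. The part of either in the Pdk4 values was not tested.

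Ucp3 and Acot2, set beside Pdk4 after their values were seen, were low in the same female libraries. Ucp3, a mitochondrial uncoupling protein of muscle that rises with fatty acid supply, had 161, 138 and 71.0 CPM in female mock libraries 1 to 3 and 172, 147.5, 55.7 and 159 CPM in female C-del libraries 1 to 4. Its lowest pair of libraries was the same as for Pdk4. Acot2, a mitochondrial acyl-CoA thioesterase and PPAR target, had 11.95, 21.5 and 8.48 CPM in female mock and 13.5, 26.2, 8.22 and 17.9 CPM in female C-del libraries. Here too the numbers 3 were lowest and C-del library 2 was highest. In males the 2 genes went apart: Ucp3 had 117 to 126.5 CPM in mock and 151 to 197 CPM in C-del libraries, highest in C-del 3 and 4, whereas Acot2 had 18.2 and 13.9 CPM in C-del 1 and 2 and 11.4 and 9.05 CPM in C-del 3 and 4.

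**Figure D3:**
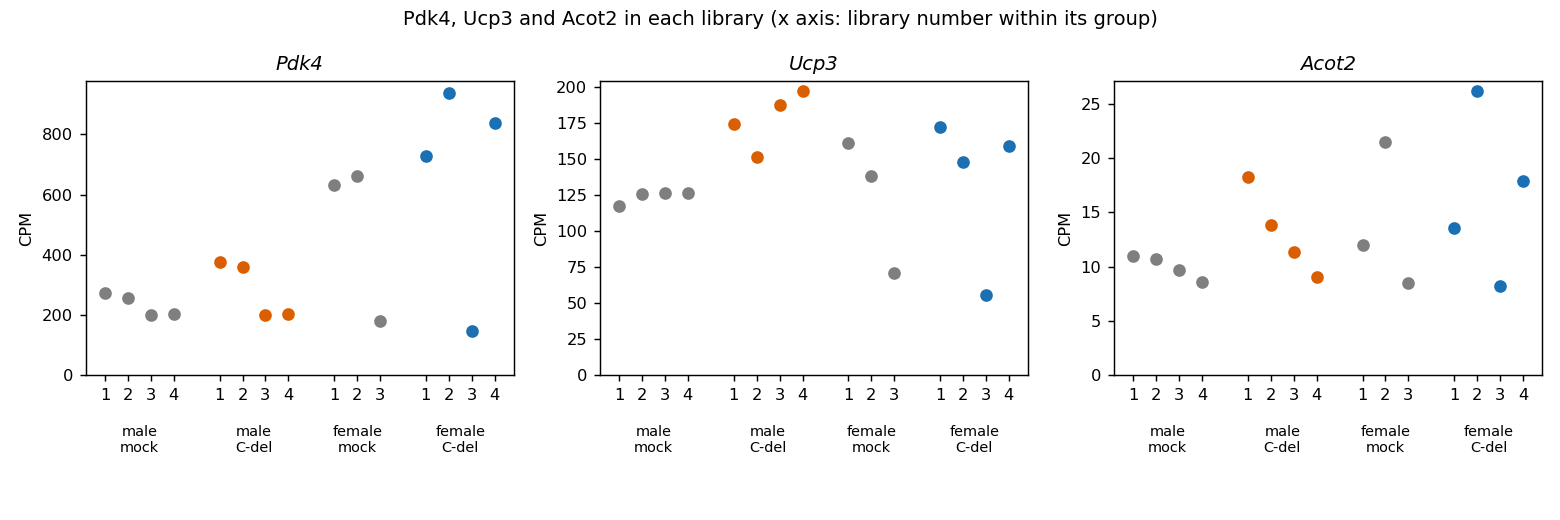
CPM of Pdk4, Ucp3 and Acot2 (y axes from 0) in each library, numbered within its group on the x axis. Female mock 3 and female C-del 3 are lowest for all 3 genes among female libraries, and male C-del 1 and 2 are above male C-del 3 and 4 for Pdk4 and Acot2 but not for Ucp3.

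Glul encodes glutamine synthetase, a classic glucocorticoid-induced enzyme of muscle (chromosome 1, 153899929 to 153909723). It had 341, 297, 321 and 318 CPM in male mock libraries 1 to 4 and 307, 303, 399 and 443 CPM in male C-del libraries 1 to 4. C-del columns 3 and 4 lay above all mock libraries while columns 1 and 2 lay among them (log2 fold change 0.18 ± 0.13; edgeR, adjusted p = 0.436). With C-del libraries 3 and 4 alone it passed, at a log2 fold change of 0.40 (adjusted p = 0.000823), which describes those libraries and not the group. Female values were 286.5, 148 and 224 CPM in mock and 191, 176.5, 202 and 187 CPM in C-del libraries, all C-del libraries lying within the mock range (log2 fold change -0.21 ± 0.19; edgeR, adjusted p = 0.679).

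Pik3r1 encodes the regulatory subunit p85 alpha of phosphoinositide 3-kinase, which in excess dampens insulin signalling. It was among the steadiest members, at 45.9 to 58.1 CPM in male mock, 42.7 to 48.5 CPM in male C-del, 38.7 to 47.8 CPM in female mock and 43.9 to 51.5 CPM in female C-del libraries. The groups overlapped in both tables (male log2 fold change -0.15 ± 0.074, adjusted p = 0.223; female 0.060 ± 0.12, adjusted p = 0.859; edgeR).

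Angptl4, a secreted inhibitor of lipoprotein lipase induced by fasting, was near the limit of detection. The tables hold 4 entries of this symbol at different loci, and the main one had 0.130 to 0.755 CPM in male mock and 0.176 to 0.459 CPM in male C-del libraries. It did not pass the filter on low counts in males. In females it had 0.330 to 0.940 CPM in mock and 0.503 to 1.58 CPM in C-del libraries (log2 fold change 0.74 ± 0.48; edgeR, adjusted p = 0.576). With all 4 entries summed the group means were 1.303 ± 0.912 and 1.11 ± 0.483 CPM in male mock and C-del (SD, n = 4 each), and 2.36 ± 0.971 and 4.13 ± 1.63 CPM in female mock and C-del (SD, n = 3 and 4). The lowest female C-del library was number 3, at 2.01 CPM, as for Pdk4.

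Members differed widely in level per length of exon. In male mock libraries the mean CPM per kb of exon was 96.1 for Glul, 66.4 for Pdk4, 44.3 for Sgk1, 39.7 for Tsc22d3, 27 for Zbtb16 and 16.7 for Nr3c1. It was 5.02 for Pik3r1, 2.26 for Cebpd and 1.76 for 1 Fkbp5 entry (3.52 for both), and 0.111 for the main Angptl4 entry (0.368 for all 4). The library ranges of neighbours in this order did not overlap, except for Cebpd (1.77 to 2.51) and 1 Fkbp5 entry (1.47 to 2.1). Exon lengths are those of all GENCODE M21 exons of a gene joined, so a gene with many unused exons has its level understated. Female mock means set against male mock means gave 2.11 for Pdk4 and 0.262 for Zbtb16, while the ratios of the other members that reached 1 CPM lay from 0.652 to 0.877. Sex and table cannot be told apart in these ratios, which were not tested.

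On the scale of log2(CPM + 1), Pdk4 and Fkbp5 were the members that varied most between libraries of a group. The within-group SD of log2(CPM + 1), with a pseudocount of 1, was 0.85 for Pdk4 and 0.482 for Fkbp5, above 99.4% and 96.5% of 15272 genes. It was 0.15 for Nr3c1 and 0.125 for Pik3r1, and the median over all genes was 0.176. The other 6 members had values from 0.185 to 0.271. The highest of these was that of Angptl4, whose main entry had 0.130 to 1.58 CPM. At so low a level the pseudocount narrows the SD, so its rank among the members is not settled by this measure.

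**Figure D4:**
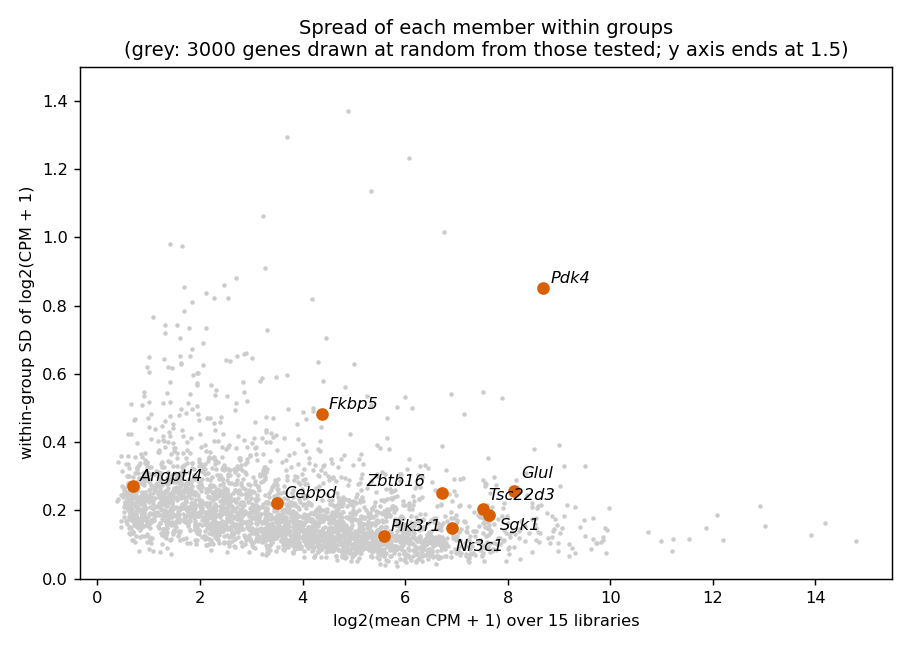
Within-group SD of log2(CPM + 1) over the 15 libraries (y axis) against log2 of the mean CPM + 1 (x axis), with members in orange and 3000 genes drawn at random from those tested in grey. Pdk4, at 0.85, stands above genes of like level, and Pik3r1, at 0.125, lies among the lower ones.

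Averaged over both tables in a fit of all 15 libraries, 3 of 10 members rose and 0 fell with edgeR, against 4.41% of 15272 genes passing in either direction and 2.42% higher. At an unadjusted p under 0.05 there were 4, all higher, against 19.7% of all genes (8.89% higher). Tsc22d3 rose 1.36-fold (adjusted p = 0.0161), Cebpd 1.51-fold (adjusted p = 0.00972) and Zbtb16 1.37-fold (adjusted p = 0.0436). These averages join unlike parts: Cebpd had a log2 fold change of 1.21 in males and -0.015 in females, and Zbtb16 had 0.16 and 0.74. The Zbtb16 average passed in 8 of 20 alternatives, where those of Tsc22d3 and Cebpd passed in all 20. For Nr3c1 the average was 0.0035 ± 0.073 on the log2 scale (adjusted p = 0.986), from values of opposite sign in the 2 tables.

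The wider pathway was read in 3 lists, which were also chosen with earlier results of these data known. Their counts beside the shares of all genes therefore do not test the lists. Of 20 other glucocorticoid-induced genes, 18 were tested in males, of which 11 rose and 2 fell, where 5.8% of all genes rose and 5.37% fell. Their log2 fold changes had a median of 0.53, where all genes had -0.0047. Ddit4, a repressor of mTORC1, rose 4.91-fold (adjusted p = 3.03e-05). The tumour suppressor and EGFR inhibitor gene Errfi1 rose 1.78-fold (adjusted p = 1.35e-05), the clock gene Per1 1.61-fold (adjusted p = 3.82e-06) and Depp1, an autophagy regulator and FOXO target, 2.13-fold (adjusted p = 3.71e-05). Those that fell were the stress-induced Sesn1 (log2 fold change -0.48) and Mstn, the growth inhibitor myostatin (log2 fold change -0.31), named here after their values were seen. In females 0 of 18 passed with edgeR. DESeq2 passed 4, all higher, against 2.64% of all genes in either direction. An unadjusted p under 0.05 was found for 4 higher and 2 lower genes, against 4.81% and 7.09% of all genes, and the median was 0.11.

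Some of these genes had female values close to the male ones and others did not. The female log2 fold changes were 1.23 ± 0.19 for Errfi1, 1.25 ± 0.25 for Depp1 and 0.65 ± 0.16 for Per1, against 0.83, 1.09 and 0.68 in males, and their female adjusted p was 0.0775, 0.136 and 0.171 with edgeR. Each passed with DESeq2. Dusp1, a phosphatase that shuts off MAP kinases, had 0.83 ± 0.20 in females (edgeR, adjusted p = 0.161). Its male groups overlapped, at 74.9 to 96.5 CPM in mock and 87.1 to 99.6 CPM in C-del libraries. The female minus male difference of Dusp1 was 0.68 ± 0.21 (edgeR, adjusted p = 0.117). Ddit4 had 11.3 to 13.8 CPM in male mock and 48.0 to 77.8 CPM in male C-del libraries, but 6.96 to 11.3 CPM in female mock and 10.3 to 12.2 CPM in female C-del libraries. Its effect differed between the tables (female minus male log2 fold change -2.06 ± 0.23; edgeR, adjusted p = 0.00058).

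Of 14 genes for receptor chaperones, cofactors and steroid supply, 5 rose and 1 fell in males, where 5.8% of all genes rose and 5.37% fell. The other 8 did not pass, and the median over the 14 was 0.099 (log2). Hsp90aa1, an inducible Hsp90, rose 1.99-fold, from 62.3 to 69.7 CPM in mock to 122 to 151 CPM in C-del libraries (edgeR, adjusted p = 5.87e-07). The chaperone Hspa8 rose 1.503-fold (adjusted p = 7.21e-06), Stip1, which links Hsp70 to Hsp90, rose 1.32-fold (adjusted p = 4.36e-05), and Hsp90ab1, the constitutive Hsp90, rose 1.24-fold (adjusted p = 0.000622; 0.0893 with neighbouring columns summed). Fkbp4, the co-chaperone that favours receptor transport, was the fifth, with a log2 fold change of 0.17 ± 0.039. The gene that fell was Nr3c2, the mineralocorticoid receptor, which also binds glucocorticoids (log2 fold change -0.41 ± 0.080; adjusted p = 0.00426). Fkbp4 and Nr3c2 were named after their values were seen. In females 0 of 14 passed with edgeR or DESeq2, with 1 higher gene at an unadjusted p under 0.05 (against 4.81% of all genes), and Hsp90aa1 had 50.2 to 67.8 CPM in mock and 55.6 to 69.5 CPM in C-del libraries. The Hsp90aa1 effect differed between the tables (log2 difference -0.95 ± 0.14; edgeR, adjusted p = 0.0103).

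Of 24 other fasting, FOXO and PPAR targets, 23 were tested in males, of which 3 rose and 0 fell with edgeR, where 5.8% and 5.37% of all genes did, and 4 rose with DESeq2. An unadjusted p under 0.05 was found for 7 higher genes and 1 lower gene, against 13.1% and 12.9% of all genes, and the median was 0.14 (log2). Ucp3 rose 1.43-fold (adjusted p = 0.000438), Ppard, a fatty acid-sensing nuclear receptor, by 0.37 on the log2 scale (adjusted p = 0.0048) and Lpin1, a phosphatidate phosphatase, 1.19-fold (adjusted p = 0.00304). Cpt1b, the muscle carnitine palmitoyltransferase, had a log2 fold change of 0.14 ± 0.044 and did not pass (adjusted p = 0.0584). The call of Ucp3 was lost in the fit of all 15 libraries (adjusted p = 0.455), that of Ppard against mock libraries 1 and 2 (adjusted p = 0.0744) and with neighbouring columns summed (adjusted p = 0.0887), and that of Lpin1 in all of these 3 settings (adjusted p = 0.266, 0.0602 and 0.124). In females 0 of 23 passed with edgeR. DESeq2 passed 1 higher and 1 lower gene, against 2.64% of all genes. At an unadjusted p under 0.05 there were 2 higher and 2 lower genes, against 4.81% and 7.09% of all genes. Fbxo32, the muscle ubiquitin ligase atrogin-1, had a female log2 fold change of 0.59 ± 0.17 and Txnip, an inhibitor of glucose uptake, 0.32 ± 0.12. Eif4ebp1, a repressor of translation, had -0.70 ± 0.12 (edgeR, adjusted p = 0.11). Ucp2, another uncoupling protein, had -1.81 ± 0.53, with 63.1 and 47.5 CPM in female mock libraries 2 and 3 and 8.15 to 13.4 CPM in the other 5 female libraries. Those 2 libraries also had the most macrophage marker RNA among females, and the part of macrophages in the Ucp2 value was not tested. Without mock library 1 the Ucp2 value was -2.28 (adjusted p = 0.000158), and against mock library 1 alone, an arm of 1 library, it was 0.49.

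**Figure D5:**
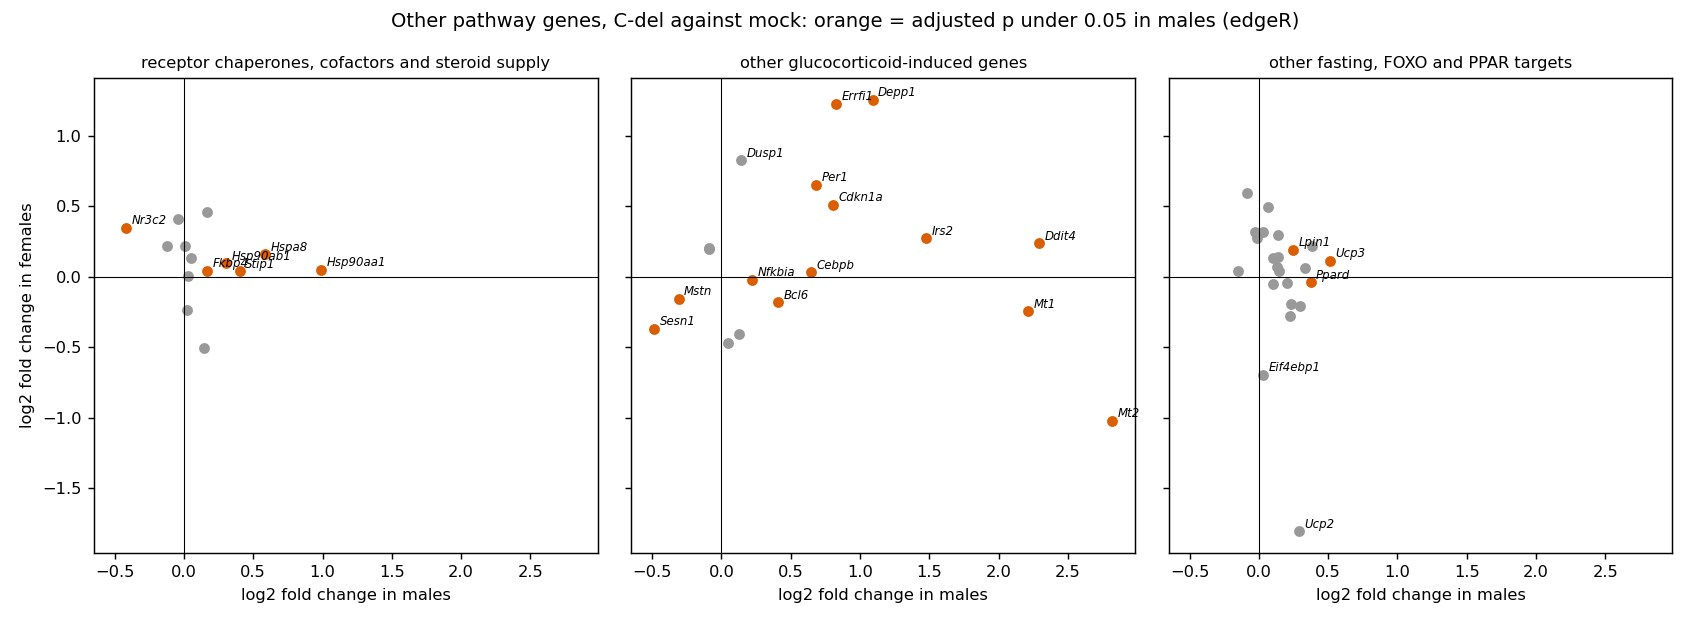
Log2 fold change of C-del against mock in females (y axis) against that in males (x axis) for the genes of the 3 other lists, with genes that passed edgeR in males in orange. Errfi1, Depp1 and Per1 are on the positive side in both tables, while Ddit4, Hsp90aa1 and Mt2, the last picked for its place in the plot, have male values of 2.30, 0.99 and 2.82 and female values of 0.24, 0.051 and -1.02.

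The genes whose pattern was most like that of Tsc22d3 were Klf2, Hspa8, Hspb6, Otud1 and Bag3. Likeness was Pearson's r of log2(CPM + 1), centred within each table, over the 15 libraries, among 10171 genes with a mean of at least 5 CPM. It was 0.926 for the Kruppel-like factor Klf2, 0.911 for Hspa8 and for the small heat shock gene Hspb6, and 0.91 for the deubiquitinase gene Otud1 and the co-chaperone Bag3. Spearman's rho lay between 0.764 (Hspb6) and 0.875 (Hspa8). These are the highest of many values that share libraries and depth, so they describe a ranking and carry no test. Without the 2 libraries farthest from the Tsc22d3 median, r was 0.874 to 0.956. Centring was within tables and not within groups, so the ranking keeps the difference between C-del and mock. Genes picked this way tend to differ between the male groups as Tsc22d3 does, so their male calls are no separate result. In males all 5 genes passed with edgeR, with log2 fold changes of 1.27, 0.59, 0.77, 1.86 and 0.49 in the order above. In females 0 of 5 passed, with 0.48, 0.16, 0.48, 1.37 and 0.25.

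Sums over markers of other cells stood apart between the groups in places, in both tables. In females the 8 macrophage markers had a median of -2.15 (log2), with 0 passing edgeR. DESeq2 passed 3 as lower (against 2.64% of all genes in either direction), and 7 were lower at an unadjusted p under 0.05 (against 7.09%). Ptprc, the 1 leukocyte marker tested there, had -4.30 (edgeR, adjusted p = 0.157). It had 2.93 to 77.8 CPM in female mock and 0.998 to 3.25 CPM in female C-del libraries. The 8 leukocyte markers summed to 3.59, 170 and 30.6 CPM in female mock libraries 1 to 3, and to 1.45 to 4.57 CPM in female C-del libraries. Mock library 1 thus lay within the C-del range, and the fold rests on mock libraries 2 and 3. In males the macrophage median was 0.57, with 0 of 8 passing. Of 7 pericyte and smooth muscle markers 5 fell in males, where 5.37% of all genes fell. Their summed level was 1200 to 1250 CPM in mock and 1060 to 1080 CPM in C-del libraries. Most of it came from Rgs5 (means of 613.1 and 557.4 CPM in male mock and C-del) and Abcc9 (366.8 and 310.9 CPM). In females the same sum was higher in C-del, at 783 to 938 CPM in mock and 955 to 1060 CPM in C-del libraries. There 0 of 7 passed edgeR and 3 were higher at an unadjusted p under 0.05, against 4.81% of all genes. The 8 endothelial markers summed to 428 to 448 CPM in male mock and 434 to 469 CPM in male C-del libraries. With edgeR 1 of them, Cldn5, was lower in males, where 5.37% of all genes were. At an unadjusted p under 0.05, 3 were higher and 1 was lower in males, against 13.1% and 12.9% of all genes. The male median over the 8 was 0.077 (log2). In females the endothelial markers summed to 348 to 355 CPM in mock and 408 to 433 CPM in C-del libraries, which did not overlap. There 0 of 8 passed edgeR, and 1 was higher with DESeq2, against 2.64% of all genes in either direction. At an unadjusted p under 0.05, 4 were higher, against 4.81% of all genes.

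The 8 tendon markers summed to 318 to 493 CPM in male mock and 204 to 344 CPM in male C-del, and their median was -0.74 (log2). The edgeR test passed 1 as lower, Tnmd, where 5.37% of all genes were lower. DESeq2 passed 4, against 10.3% of all genes in either direction. At an unadjusted p under 0.05, 5 were lower, against 12.9% of all genes. Fmod had 114.7 to 222.3 CPM in mock and 54.4 to 102.6 CPM in C-del libraries. Female tendon sums overlapped, at 170 to 307 CPM and 197 to 400 CPM. The 8 adipocyte markers had a male sum of 315 to 388 CPM in mock and 342 to 425 CPM in C-del, which is mostly Plin4 (mean of 267.8 ± 8.57 and 340.8 ± 34.6 CPM, SD, n = 4 each). Plin4 rose, where 5.8% of all genes did, but the median over the 7 adipocyte markers tested was -0.80. At an unadjusted p under 0.05, 2 were lower, against 12.9% of all genes. DESeq2 passed 1 as lower, against 10.3% of all genes in either direction. The mean CPM of Adipoq in males was 6.19 in mock and 2.81 in C-del, and its groups overlapped. Fmod and Adipoq were named after their values were seen. Female adipocyte sums overlapped, at 255 to 389 CPM and 298 to 484 CPM, and 0 of the female tendon and adipocyte markers passed edgeR. The part of these cells in the member values was not tested.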

How the data were processed

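RNA from skeletal muscle was sequenced as stranded mRNA libraries, per the labels' protocols. The authors deposited expected counts, that is estimated counts per gene, in 1 table per sex and without normalisation. Between 14.6% and 17.3% of a library's values were not whole (tolerance 0.001). Tool and build, per the submitters' processing notes, were featureCounts 2.0.0 and GRCm38.p6. No source used here gives the aligner, the annotation release or whether strand was used in counting. Of the 42396 entries, 2379 are further copies of a symbol, among them 1 of Fkbp5 and 3 of Angptl4. Male columns show only the group, and their numbers are used as names. Female numbers come from the titles.

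Values were rounded and tested in R 4.3.3 with edgeR 4.0.16 (filterByExpr with a minimum count of 10, TMM, robust quasi-likelihood test, Benjamini-Hochberg adjustment), each table alone, with a fit of all 15 libraries for the average and the female minus male effect. DESeq2 1.42.0 was an alternative. SE was taken from the estimate and F. The tests were tried on simulated libraries, drawn independently with the same spread per gene in every group. Neighbouring column pairs and libraries that stood apart were not simulated. Plots used Python 3.11.15 and matplotlib 3.10.9. The members and lists were chosen with earlier results of these data known. All members are named, with up to 4 genes per list and table by smallest p (passing first), and the 5 genes most like Tsc22d3. Female replicate numbers were not used to pair libraries in the main fit, and whether they mark pairs is not known.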

Additional observations from a re-analysis of the deposited data

Results flagged for a closer look

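Cebpd had a female minus male log2 fold change of -1.23 (edgeR, adjusted p = 0.045): all 4 male C-del libraries lay above the male mock libraries, and the female groups overlapped. It stands here because the effect in the 2 tables differed by a test of the difference itself. The call held in 8 of 20 alternatives, and sex and table cannot be told apart. In none of the 30 groups of 4 libraries read for single members was 1 library set apart by Dixon's criterion, which chance meets in about 1 group of 20.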

How the results depend on the processing

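In males 1624 genes passed, with 4 members higher and 1 lower. A fit of all 15 libraries gave 380 genes, 2 members higher and 0 lower, and neighbouring columns summed, which like the summing of entries was added after seeing the data, gave 270 genes, 2 higher and 0 lower. Only mock libraries 1 and 2 gave 767 genes. Leaving out single libraries gave 1100 to 1526 genes, with 4 members higher and 1 lower each time. Zbtb16 turned to -0.11 with only mock libraries 1 and 2, and Pdk4 to -0.21 with only C-del libraries 3 and 4.

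In females 2 genes passed and 0 members. DESeq2 gave 376 genes and 1 member higher, the fit of all 15 libraries 777 and 1, no filter 16, entries summed 6, and only mock library 1 gave 4. Single libraries left out gave 1 to 1050 genes (the latter without mock library 1) and 0 members. Against mock library 1 alone, whose spread is taken from the C-del group, Fkbp5 turned to 0.245, Cebpd to 0.125, Sgk1 to -0.093, Pik3r1 to -0.0037 and Ucp2 to 0.49. With single libraries left out, Glul ran from -0.42 to 0.029, Fkbp5 from -0.58 to 0.28, Cebpd from -0.12 to 0.13, Pik3r1 from -0.037 to 0.13, Pdk4 from 0.026 to 0.76, Sgk1 from 0.023 to 0.28, Nr3c1 from 0.15 to 0.46 and Tsc22d3 from 0.099 to 0.54. Same-numbered female libraries showed no shared deviation over all genes (correlations of -0.135, -0.00922 and -0.039, within the -0.194 to 0.211 of other pairings). This does not settle whether numbers mark pairs, as mock libraries 2 and 3 stood apart in other ways. With the replicate number as a block 2 genes and 0 members passed.

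For the average (673 genes) DESeq2 gave 1096 and single libraries left out 368 to 2085 (the latter without female mock library 1) with 2 to 4 members higher, with Nr3c1 from -0.071 to 0.087 and Glul from -0.12 to 0.11. For the difference (54 genes, 1 member lower) DESeq2 gave 656 and 1 member higher (Nr3c1). Single libraries left out gave 10 to 1817 genes (the latter without female mock library 1), 0 to 1 members lower, 0 to 1 higher, and Pdk4 from -0.25 to 0.48. The causes were not tested. Angptl4 was near the limit of detection, and its 4 entries together had 0.456 to 2.54 CPM in male libraries.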
